A study of Rattus norvegicus with 2 samples.

Results

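The complement genes described here are those for the activating components C1s, C2, C3, C5 and factor B (Cfb), the pore-forming components C6 and C7, and the inhibitors C1 inhibitor (Serping1) and decay-accelerating factor (Cd55), in fetal rat skin. They were chosen by name, as the non-control array rows whose gene name equals 1 of 9 symbols. By that rule 8 of the 9 names were found, with 12 of 41012 probes, out of 18345 named genes on the array. No row bears the name Cd55. A probe named Daf1 on the array, which the RefSeq gene table assigns to Cd55, is described apart from the others.

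The study compared skin of fetal Sprague Dawley rats, an outbred strain, with no treatment, at day 16.5 of gestation, which the labels call E16, and at day 18.5, which they call E19. RNA of 4 E16 samples was combined into 1 pool and RNA of 3 E19 samples into another, and no allele or agent was named for either. Each of 2 Agilent rat arrays took both pools, the first with E19 in Cy5 and E16 in Cy3, and the second with the dyes exchanged. Below, the Cy5 array is the one with E19 in Cy5 and the Cy3 array the one with E19 in Cy3. The arrays therefore repeat a measurement of the same RNA, and the differences between stages have no replicate check and no test. Values are log2 ratios of E19 over E16 on each array, their mean and the SD of the 2 arrays, which holds none of the spread between animals. Unless stated otherwise, the call is a ratio of 2-fold or more in the same direction on both arrays. In bulk skin RNA, fewer cells of a type and less RNA per cell cannot be told apart.

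Complement is a set of plasma and membrane proteins that tag targets for uptake and puncture membranes. C1q, lectins or spontaneous turnover start a chain of proteases that cleave C3 and then C5, after which C6 to C9 assemble a pore, while soluble and membrane-bound inhibitors hold the chain in check on the body's own cells. The liver makes most of the circulating proteins, and macrophages, fibroblasts, keratinocytes and fat cells also make some of them.

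Of the 6 detected members, 5 had a mean ratio above 0 and 1, C3, below, beside 7764 of 14787 detected genes above 0. Cfb, counted above 0, had opposite signs on the 2 arrays. C2 was the single member called higher in E19, at 2.77-fold, against a background of 4.15% of detected genes called higher in E19. C3 was lower in E19 by 2.07-fold on the mean of the arrays but reached 2-fold on only 1 of them, so 0 members were called higher in E16, against 3.75% of detected genes. C6 was 1.71-fold higher in E19. C1s and Serping1 lay slightly above 0 and Cfb at 0. C5 and C7 were not well above background in either pool on either array and have no fold. The 6 detected members were well above background in both pools, with a median log2 ratio of 0.26, beside 0.02 over 14787 detected genes.

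Upstream sequences of C3 and C6 are shown because these members had ratios on opposite sides of 0. The RefSeq promoter table (GRCr8) held 4 of the 9 names, C3, C5, C6 and Cd55. Each line below gives the 250 bases before the transcription start, 5′ to 3′ along the gene, with a motif match in capitals. The C3 stretch is chr9:2201340-2201589 on the minus strand and the C6 stretch is chr2:55573383-55573632 on the plus strand.
C3: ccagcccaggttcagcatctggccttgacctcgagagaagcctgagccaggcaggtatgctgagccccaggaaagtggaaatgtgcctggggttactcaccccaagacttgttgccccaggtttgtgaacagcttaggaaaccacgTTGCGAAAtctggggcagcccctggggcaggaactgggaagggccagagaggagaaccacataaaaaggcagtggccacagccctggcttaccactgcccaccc
C6: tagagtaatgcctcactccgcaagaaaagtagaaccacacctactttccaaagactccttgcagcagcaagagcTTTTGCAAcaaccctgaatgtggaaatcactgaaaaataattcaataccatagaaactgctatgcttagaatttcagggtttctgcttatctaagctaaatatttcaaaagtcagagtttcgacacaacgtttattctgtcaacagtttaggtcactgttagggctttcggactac

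The capitals mark TTGCNNAA on either strand, a form of the site bound by C/EBP factors, which act on acute-phase genes. It began 104 bases before the start in C3 and 176 bases before the start in C6. Of 33469 upstream stretches of the same length, 9.22% held it. Searched on both strands, these stretches of C3 and C6 held no match to TATAAA (12.9% of all stretches), to the interferon-gamma activated site TTCNNNGAA (7.67%), or to GAAANNGAA, a short form of the interferon-stimulated element (8.12%). The stretches of C3 and C6 held 1 match each, so no motifs overlapped. Those of C5 and Cd55 held 0 matches to any of these motifs, the C/EBP site included. The motifs were chosen with the expression values known, and a match is of letters only.

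C1s is the protease of the C1 complex that cleaves C4 and C2. Its brighter probe had log2 ratios of 0.29 on the Cy5 array and 0.17 on the Cy3 array, a mean of 0.23 ± 0.08 (SD, 2 arrays). Its dimmer probe read 0.28 and 0.33, a mean of 0.31 ± 0.04. Both probes lay above 0 on both arrays. The normalised log2 intensity of the brighter probe was 13.84 and 13.80 in the E19 pool and 13.56 and 13.63 in the E16 pool, so the pools did not overlap. The share of all detected genes without such overlap was not counted. Here and below, a lack of overlap between these technical readings therefore sets no gene apart. For scale, the ratios of the arrays differed by 0.16 in the median over detected genes. Centred on the spike-in RNAs, control transcripts added to both labellings, the ratio of the brighter probe was 0.01.

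C2 is cleaved by C1s or by lectin-bound proteases to give the catalytic part of the classical C3 convertase. Its level was 11.95 and 12.22 in the E19 pool and 10.54 and 10.69 in the E16 pool. The lower E19 value lay above the higher E16 value by more than either pair differed within itself. The log2 ratios were 1.41 on the Cy5 array and 1.53 on the Cy3 array, with a mean of 1.47 ± 0.09. Of detected genes, 98.1% had a lower mean ratio. In the authors' deposited table C2 was 2.83-fold higher in E19.

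Cfb, which encodes factor B, gives the catalytic part of the alternative C3 convertase and is the counterpart of C2. Its level was 12.63 and 12.70 in the E19 pool and 12.72 and 12.57 in the E16 pool, so the pools overlapped. The ratios were -0.10 on the Cy5 array and 0.13 on the Cy3 array, with opposite signs and a mean of 0.02 ± 0.16. C2 and Cfb neighbour each other: the array files place the C2 probe at chr20:4071731-4071790 and the Cfb probe at chr20:4077203-4077346, in a genome build not given in the sources used here. The ratio of the C2 probe was at least 2-fold on both arrays and that of the Cfb probe on neither.

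C3 is the central component, cleaved by both convertases, and its fragments coat targets. In the E19 pool its level was 11.48 and 11.03, and in the E16 pool it was 12.32 and 12.29. Both E19 values lay below both E16 values, and the E19 values differed more between arrays. The log2 ratio was -0.84 on the Cy5 array and -1.26 on the Cy3 array, a mean of -1.05 ± 0.30. Of detected genes, 4.03% had a lower mean ratio. Feature Extraction's processed signals gave -0.91 and -1.26, so the same array stayed short of 2-fold. In the authors' deposited table, which combines the arrays, C3 was 2.11-fold lower in E19.

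**Figure D1:**
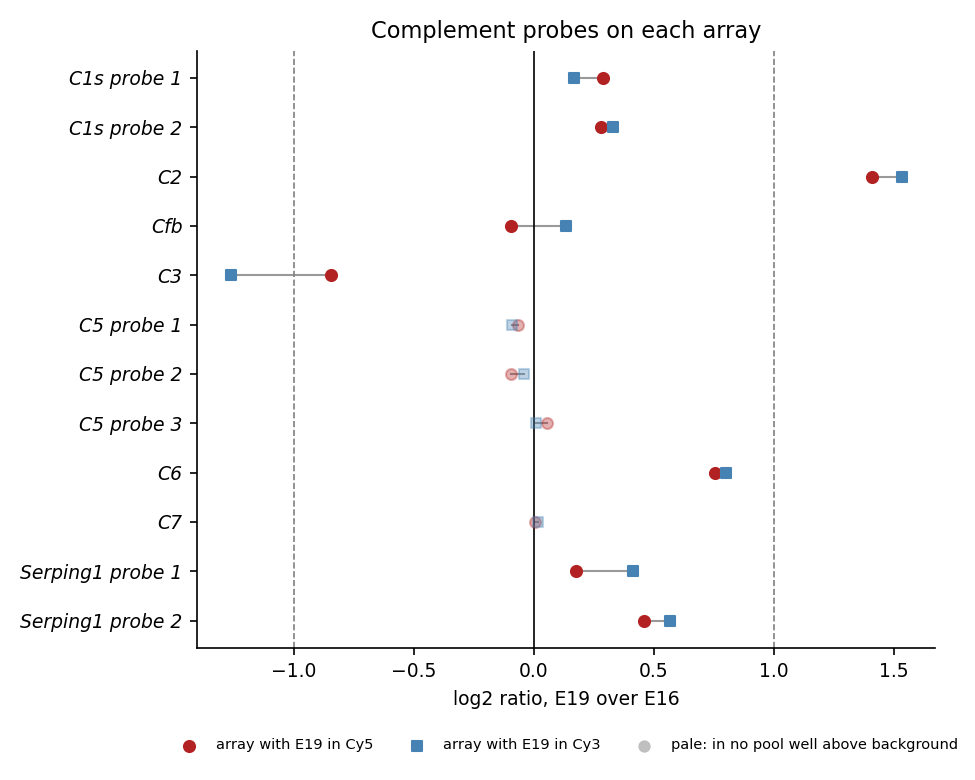
Log2 ratio of E19 over E16 (horizontal axis) for the 12 complement probes, with circles for the array with E19 in Cy5 and squares for the array with E19 in Cy3; dashed lines mark 2-fold, and pale symbols are probes not well above background in either pool. C2 lies beyond 2-fold on both arrays, C3 on 1 of them, and Cfb on both sides of 0.

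C5 is split to release the attractant C5a and to start the pore with C6 and C7. Its 3 probes had mean spot intensities between 60.3 and 84.1 in the Cy5 channel and between 38.1 and 45.3 in the Cy3 channel, over local backgrounds of 53.0 to 60 and 31.0 to 41.5. They were well above background in no pool. The C7 probe read 93.6 and 51.4 in the E19 pool and 50.9 and 102.5 in the E16 pool, over backgrounds from 34.5 to 62.0, and was not well above background either. Neither gene can be compared between stages at this signal.

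C6 joins the pore after C5b. The C6 probe was dim, with mean spot intensities of 269.3 and 122.1 in the E19 pool and 75.5 and 175.5 in the E16 pool, the higher value of each pair being in Cy5. Its normalised log2 level was 7.84 and 7.73 in the E19 pool and 7.08 and 6.93 in the E16 pool, with no overlap. The log2 ratio was 0.76 on the Cy5 array and 0.80 on the Cy3 array, a mean of 0.78 ± 0.03. This size depends on the background correction: without the offset of 50 added after correction the ratios were 1.15 and 1.19, and Feature Extraction's processed signals gave 1.46 and 1.5, both past 2-fold on both arrays. The authors' deposited table had C6 2.79-fold higher in E19, a log2 ratio of 1.48. That equals the mean of the processed signals, 1.48, so it is not a separate check. The direction was the same in all of these.

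Serping1 encodes C1 inhibitor, which blocks C1s and its partner C1r as well as plasma kallikrein. Its brighter probe had a level of 14.80 and 14.95 in the E19 pool and 14.62 and 14.54 in the E16 pool. The E19 values lay above the E16 values. Log2 ratios were 0.17 on the Cy5 array and 0.41 on the Cy3 array, a mean of 0.29 ± 0.17. The dimmer probe read 0.46 and 0.57, a mean of 0.51 ± 0.08, so the probes differed in size but not in sign. Centred on the spike-in RNAs, the brighter probe was at 0.08.

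**Figure D2:**
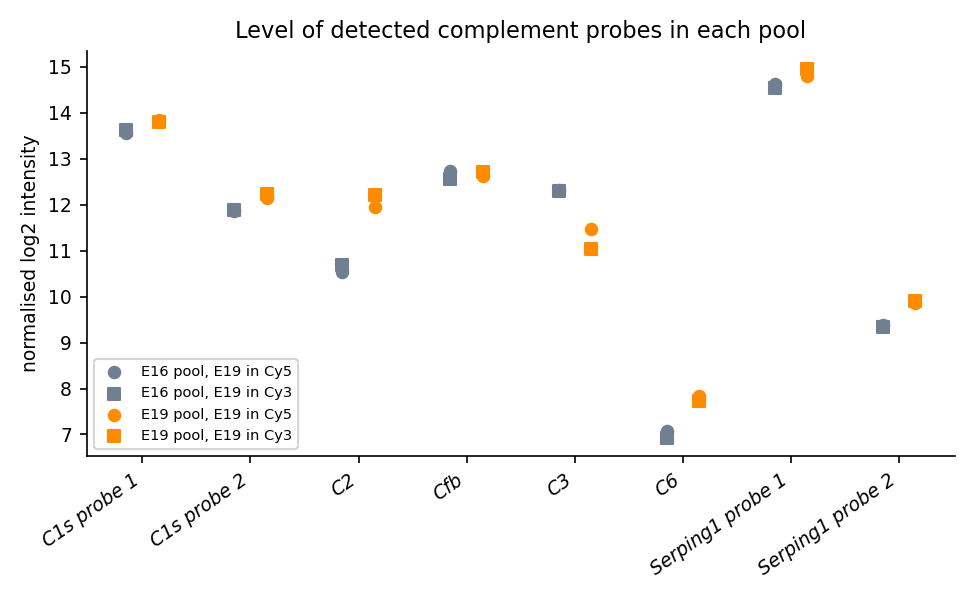
Normalised log2 intensity (vertical axis) of the 8 detected complement probes in the E16 pool (grey) and the E19 pool (orange), with a circle for the array with E19 in Cy5 and a square for the array with E19 in Cy3. C2 and C6 are higher in both E19 values, C3 is lower in both, and the Cfb values overlap; heights of different probes are not comparable.

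Decay-accelerating factor speeds the decay of C3 convertases on cell surfaces. The Daf1 probe, assigned to Cd55, was detected in both pools, with a level of 9.53 and 9.30 in E19 and 8.84 and 8.87 in E16. The pools did not overlap. Its log2 ratio was 0.68 on the Cy5 array and 0.43 on the Cy3 array, a mean of 0.55 ± 0.18, short of 2-fold. The authors' deposited table gave 1.63-fold.

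The rest of the pathway was followed with a list of 45 further complement genes, of which 41 were on the array and 31 were detected. Called higher in E19 were 2 genes, Cfd and C4a, and called higher in E16 were 0. The median log2 ratio was 0.32, with 23 genes above 0 and 8 below. Over all 14787 detected genes, 4.15% were called higher in E19 and 3.75% in E16, the median was 0.02, and 7764 lay above 0. Cfd encodes factor D, the protease also known as adipsin that fat cells secrete and that cleaves factor B. It read 2.25 on the Cy5 array and 2.28 on the Cy3 array, a mean of 2.27 ± 0.02, while Cfb, the gene of its substrate, was at 0.02. C4a, which encodes the component that C1s cleaves before C2, read 1.72 and 1.40, a mean of 1.56 ± 0.22. C4 genes occur as near-identical copies, so its probe may report more than 1 of them.

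Recognition molecules and their proteases had 9 detected of 12 on the array, 7 of them above 0, and none called. The C1q chain gene C1qa, known from macrophages, read 0.63 on the Cy5 array and 0.75 on the Cy3 array. The other chain genes read less, C1qb 0.10 and 0.34 and C1qc 0.51 and 0.53. C1r, which activates C1s, read 0.79 and 0.82. Of the ficolin genes, Fcnb read 1.14 and 0.94 and Fcna 0.33 and 0.38. The genes with a mean below 0 were Masp1, at 0.03 and -0.24, and Colec12, at -0.34 and -0.05. C1qb, C1qc, C1r, Fcnb, Fcna, Masp1 and Colec12 were picked after their values were seen. The soluble lectin genes Mbl1, Mbl2 and Colec10 were not detected.

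Among the soluble regulators 3 of 6 detected genes were above 0 and 3 below. Cfi, which encodes the protease that inactivates C3b, read -1.34 on the Cy5 array and -0.92 on the Cy3 array, a mean of -1.13 ± 0.30. Like C3 it passed 2-fold on 1 array, but on the other of the 2. Clusterin (Clu), which blocks pore assembly, read -0.58 and -0.71. On the other side of 0, vitronectin (Vtn), which also blocks the pore, read 0.97 and 0.66, and the carboxypeptidase N gene Cpn1, whose enzyme trims C3a and C5a, read 0.38 and 0.43. None of these regulators was called. Cpn1 was dim, with 1 of its 2 probes detected and mean levels of 6.77 in E19 and 6.36 in E16. The undetected Mbl1 was at 6.61 and 6.49. Vtn and Cpn1 were added after their values were seen.

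Membrane regulators had 3 detected of 5, with 2 above 0 and 1 below. Cr1l read 0.01 on the Cy5 array and 0.33 on the Cy3 array, and Cd46 -0.10 and 0.01. Both were added after their values were seen. The highest was the pore inhibitor CD59, at 0.96 on both arrays, just short of 2-fold. Its probe is named Cd59 on the array and Cd59b in the RefSeq gene table. The receptors had 6 of 7 detected genes above 0. The C3a receptor gene C3ar1 read 0.64 on the Cy5 array and 0.71 on the Cy3 array. Of the C5a receptor genes, both given after their values were seen, C5ar1 read 0.32 and 0.46 and C5ar2 read 1.13 and 0.98. Of the later pore genes, C8b read 0.20 and 0.34, C8g 0.60 and 0.30 and C9 -0.32 and -0.14, and C8a was not detected. The C8b and C9 probes were dim, like that of C6. Mean levels in E19 and E16 were 7.32 and 7.05 for C8b, and 6.83 and 7.06 for C9.

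**Figure D3:**
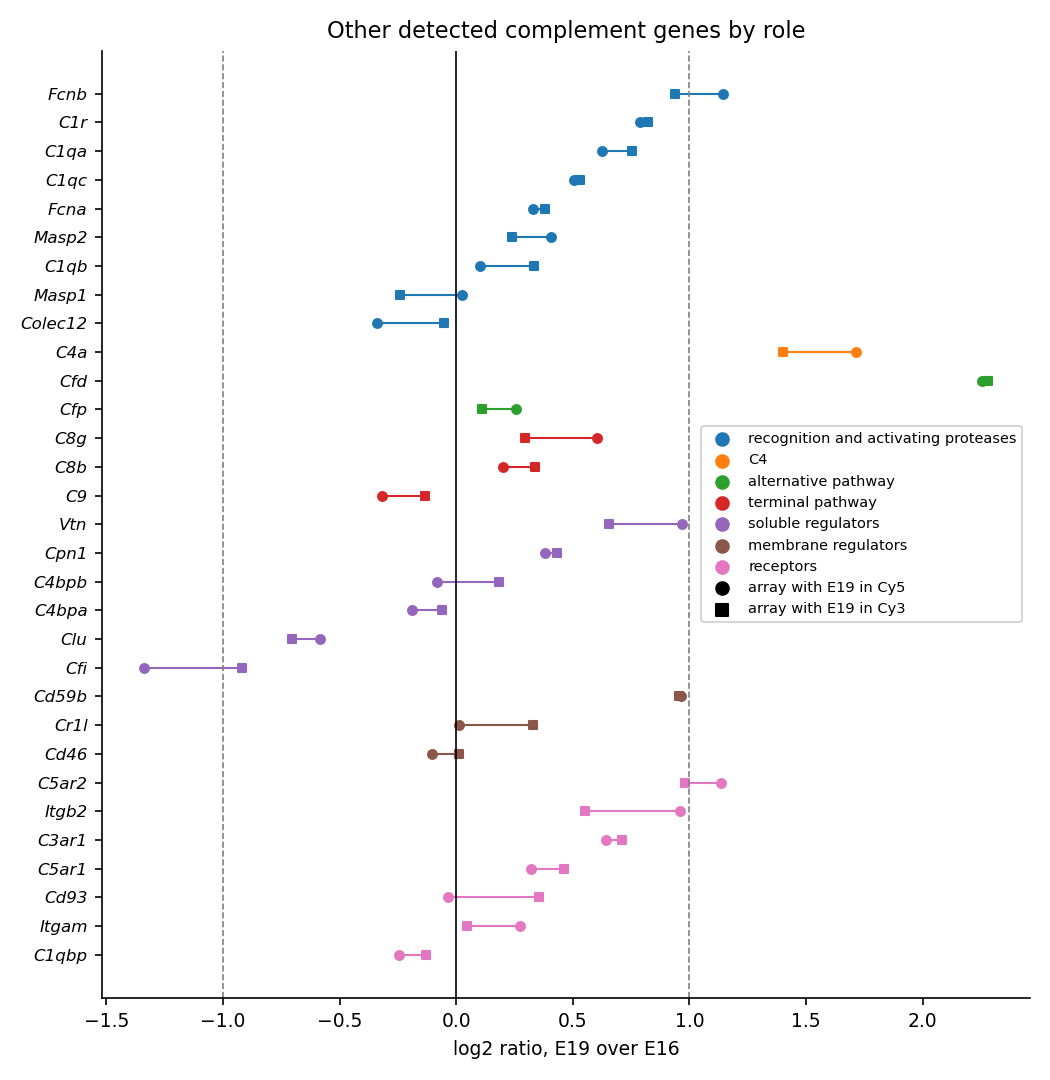
Log2 ratio of E19 over E16 (horizontal axis) of the 31 other detected complement genes, coloured by role and joined across arrays, with circles for E19 in Cy5 and squares for E19 in Cy3; dashed lines mark 2-fold. Cfd and C4a lie beyond 2-fold on both arrays, and Cfi and Clu are the lowest.

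Markers of cell types that make complement, and of others that skin holds, differed between the same pools. Summed levels below are linear, with the Cy5 array given first. They add intensities of different probes, so the brightest probes weigh most. The sums therefore do not measure the amount of a cell type. All 7 keratinocyte markers on the array were detected and had a mean ratio above 0, with a median log2 ratio of 1.13. Krt15 had opposite signs, 0.71 on the Cy5 array and -0.10 on the Cy3 array. Krt5, Krt10 and Dsp were called higher in E19, while Krt14 read 3.27 on the Cy5 array and 0.74 on the Cy3 array. The summed keratinocyte level was 245260 and 541036 in E16 and 987074 and 1033140 in E19. All 8 fibroblast markers were detected, 6 of them above 0, with a median of 0.62 and a summed level of 351635 and 528366 in E16 and 744329 and 646355 in E19. Dcn, at 1.36 ± 0.04, was the 1 fibroblast marker called higher in E19, and the brightest, Col3a1, read 1.73 and 0.06.

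Of the hepatocyte and plasma protein markers, 11 of 19 detected were called higher in E19, and Ttr, at -2.01 ± 0.51, was called higher in E16. Their summed level was 10359.6 and 9794 in the E16 pool and 33320 and 38478 in the E19 pool. Albumin (Alb) was at 4.18 ± 0.22 on the brightest of its 3 probes and Afp, which encodes alpha-fetoprotein, at 1.91 ± 0.36, whereas the liver transcription factor gene Hnf4a was at -0.06 ± 0.06, and Tat was not detected. Of the fat cell markers, 7 of 7 detected were called higher in E19, with a summed level of 5652 and 7707 in E16 and 101465 and 103862 in E19. Among them the adiponectin gene Adipoq was at 4.87 ± 0.14 and Cidea at 3.57 ± 0.49, and Lep was not detected. Of the macrophage markers, 2 of 9 were called higher in E19, Lyz2 at 1.64 ± 0.08 and Cd163 at 1.62 ± 0.05, with a summed level of 58756 and 60454 in E16 and 110929 and 115188 in E19. All macrophage markers on the array were detected, and Adgre1 alone among them lay below 0. Of the mast cell markers, 4 of 5 detected were called higher in E19 (Cpa3, Hdc, Ms4a2 and Tpsb2), with Cpa3 at 1.47 ± 0.21 and a summed level of 4867 and 5279 in E16 and 11591 and 14425 in E19. Of 6 endothelial markers detected, 0 were called, with a median of 0.30 and a summed level of 34679 and 28876 in E16 and 31981 and 37532 in E19. Plvap had the highest ratio of these, 0.86 ± 0.11, and the brightest, Kdr, read -0.16 and 0.38. The part of these cell types in the ratios of C2, C3, C6 or the other complement genes was not tested.

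**Figure D4:**
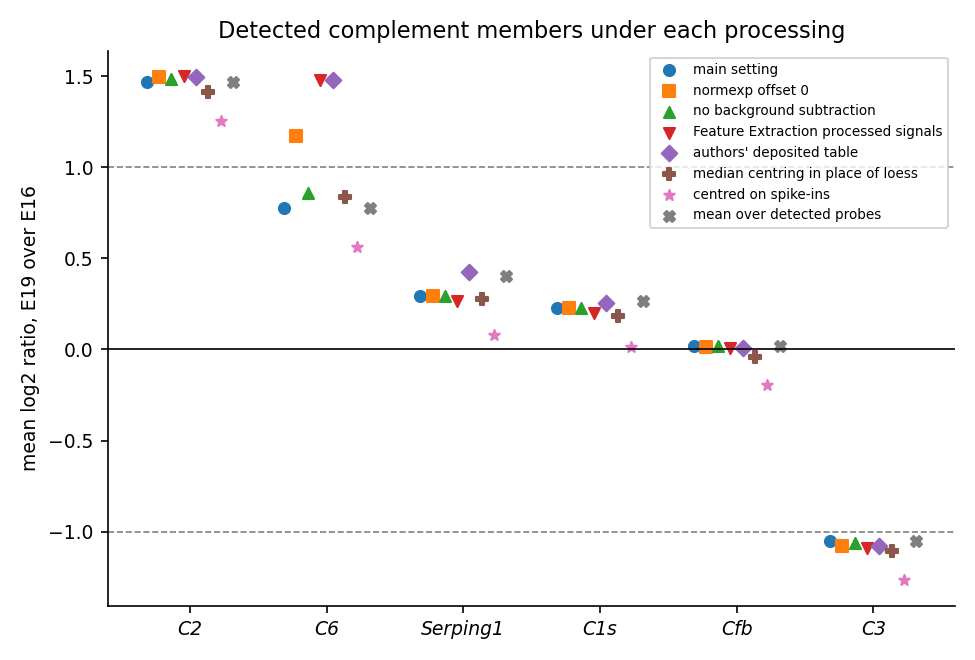
Mean log2 ratio of E19 over E16 (vertical axis) of the 6 detected complement members under 8 ways of processing the same arrays, the authors' deposited table included; dashed lines mark 2-fold. C2 stays between 1.26 and 1.5 and C3 between -1.27 and -1.05, while C6 ranges from 0.56 to 1.48.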

How the data were processed

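Members and gene lists were chosen with earlier results of these data known. The deposited array files hold uncorrected mean and background intensities per channel, written by Agilent Feature Extraction 9.5.1.1 per the file headers. They also hold processed intensities, the log10 of Cy5 over Cy3 and its p-value, per the file headers. The authors' deposited table holds a combined log10 ratio and a p-value for 36824 sequences, and was read as E19 over E16 because it followed the turned ratios of both arrays across probes (r = 0.85 and 0.84). For C2, C3, C6 and Cfb the ratios in that table lay close to the mean of the processed signals of the same arrays. The table's p-values were not used.

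Intensities were corrected with normexp (offset 50) and loess within arrays in limma 3.58.1 (R 4.3.3), with control spots at weight 0. Outlier spots were left out and ratios turned to E19 over E16. Levels came from loess and Aquantile. A gene took its brightest detected probe, detected meaning well above background in a pool on both arrays. On each array, 71.5% to 74.3% of spots per channel were well above background. Names came from RefSeq by accession (10726 probes), symbol (5580) or synonym (3729), or from the files (3371), and 17606 probes had none. Named genes were all members, called genes of the pathway list, up to 6 others by role, and the marker gene of each list with the largest ratio and the brightest. Others were named after their values were seen. These were C1qb, C1qc, C1r, Fcnb, Fcna, Masp1, Colec12, Cr1l, Cd46, C5ar1, C5ar2, C8 and C9 genes, Vtn and Cpn1. The remaining called markers, Krt15, Hnf4a, Tat, Lep and Adgre1 were also named in this way. Simulated dye swaps of 41012 probes returned 100% of 100 probes changed by 1.5 and 100% of 100 changed by 3 (log2), and 0 false calls. The changed probes left out the dimmer and the brightest ones, and the simulated noise was small beside the changes. The simulation thus checks that the steps run correctly, and cannot show how reliable calls of dim or very bright probes are. Python 3.11.15, numpy 2.4.6, pandas 2.3.3 and matplotlib 3.10.9 were used. The number of arrays limits the technical precision, and 1 pool per stage leaves the spread between animals unmeasured. The pathway list leaves out 1 gene, which is not reported here.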

Additional observations from a re-analysis of the deposited data

How the results depend on the processing

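Each array pairs the 2 pools, but no test of the stages was possible because each stage is 1 RNA pool. C2, C3, C6, C1s and Serping1 kept their sign under each of the 11 alternatives run, and Cfb lay between -0.20 and 0.13. Not all of these alternatives could move a member. Averaging over probes, keeping dim probes and keeping outlier spots left C2, C3 and C6 unchanged, since each has a single detected probe without outlier spots. The single-array alternatives reuse the ratios that make up the mean. Centring on the 10 spike-in RNAs lowers every log2 ratio by 0.22. Members called higher in E19 numbered 1, and 2 with normexp offset 0, with Feature Extraction's processed signals, at 1.5-fold and in the authors' deposited table. The added gene was C6. A 3-fold limit left 0. Members called higher in E16 numbered 0, and 1 (C3) centred on spike-ins, at 1.5-fold and in the authors' deposited table; on a single array the count was 0 or 1. The other complement genes called higher in E19 numbered 2, and 3 with normexp offset 0 or without background subtraction, 4 with processed signals, 9 at 1.5-fold, 1 at 3-fold and 7 in the authors' deposited table, and 2 or 4 on a single array. Called higher in E16 were 0, and 1 with median centring, centred on spike-ins, at 1.5-fold and in the authors' deposited table, and 0 or 1 on a single array. Their median of 0.32 was 0.11 centred on spike-ins and 0.18 with dim probes kept. Of all genes, 613 were called higher in E19 and 554 in E16. Processed signals gave 1014 and 889. A limit of 1.5-fold gave 1413 and 1138, and 3-fold gave 178 and 230. The authors' deposited values gave 1203 and 999. Median centring gave 367 and 439 and spike-in centring 392 and 807. Single arrays gave 742 and 775 higher in E19 and 679 and 686 higher in E16. Single arrays and the authors' deposited table give 1 ratio per gene, so there the call needed 2-fold on that ratio alone. That rule is looser than 2-fold on both arrays, and C3 passes it on its main mean of -1.05. The cause of the larger moves was not otherwise tested, apart from the fold limits, which set the counts by construction.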
